A study of Sus scrofa with 21 samples.

Results

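The RNA carried by a 3D-printed microbrush was compared with the RNA of whole blood, the fluid that surrounds the device during sampling. The comparison took 9 microbrush libraries and 2 blood libraries, 11 of the 21 bulk RNA-seq libraries in the series, and the device and tissue labels chose them. Blood 2 was left out because it held only 5634 counts, and microbrush 4 because it had a count for only 3831 genes. The series tested an endovascular device for sampling endothelial cells, the cells that line vessels, and its bare Nitinol wires and surgically removed aorta serve here only as reference levels. The microbrush libraries came from peripheral kidney arteries (5 libraries, microbrush 1, 2, 3, 5 and 10) and peripheral liver arteries (4 libraries, microbrush 6, 7, 8 and 9). Pig 243K gave microbrush 2, 5, 6, 9 and 10 and blood 1, and pig 248K gave microbrush 1, 3, 7 and 8 and blood 3. The aorta libraries all came from another pig, 237053. Libraries carry the number of their replicate within the group in the order of deposition. The labels gave no treatment, genotype or age. Each pig gave several microbrush libraries, so p-values measure the spread between libraries and not between animals. The microbrush libraries held 1144932 to 10188552 counts each, blood 1 held 5301288 and blood 3 held 3224540.

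An artery has an inner sheet of endothelial cells on a basement membrane of laminins, nidogen and perlecan. Below it lies the media, built of smooth muscle cells between layers of elastin and collagen, and outside that an adventitia of fibroblasts. Blood contributes red cells, which carry haemoglobin messenger RNA mainly while they are young, along with white cells and platelets. Platelets are anucleate fragments of megakaryocytes that stick to exposed collagen and to foreign surfaces. Genes restricted to one of these compartments therefore report which material a library holds. In bulk RNA, fewer cells of a type and less RNA per cell cannot be told apart.

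The 5 marker genes separated all 9 microbrush libraries from both blood libraries. Levels below are counts per 1000000 after TMM scaling over the 11 libraries (CPM), and they compare libraries for 1 gene, never genes with each other. ELN, which encodes elastin (identifier ENSSSCG00000025858), lay between 172.8 CPM in microbrush 8 and 11350 CPM in microbrush 9, with a median of 1655. Blood 1 had 2 counts of ELN, 0.55 CPM, and blood 3 had none. The mean ELN level on the brush was 12800 times that of the 2 pooled blood libraries, with an exact Poisson 95% interval of 3540 to 106000 that covers the counting error of the blood counts only. MYH11, the myosin heavy chain of smooth muscle (ENSSSCG00000000146), ranged from 662.3 CPM in microbrush 6 to 72540 CPM in microbrush 5, with a median of 16670. Its blood levels were 6.88 and 10.1 CPM. The supplied table of gene names gives the symbol MYH11 to this identifier alone. RefSeq's position for MYH11 could not be tied to it, and near-identical myosin heavy chain genes may share reads, so both its name and its size are uncertain.

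The 3 markers of blood cells were lower on the brush in all 9 libraries. HBB, which encodes beta globin (ENSSSCG00000014725), was 52380 CPM in blood 1 and 30870 CPM in blood 3. On the brush it ranged from 143.4 CPM in microbrush 9 to 5600 CPM in microbrush 1, with a median of 725. PTPRC, which encodes the white cell antigen CD45 (ENSSSCG00000010908), was 4768 and 1789 CPM in blood and ran from 50.5 to 807.2 CPM on the brush, with a median of 159.6. CD3E, a chain of the T cell receptor complex (ENSSSCG00000040140), was 265.5 and 110.5 CPM in blood and ran from 1.58 CPM in microbrush 9 to 51.0 CPM in microbrush 1, with a median of 30.7. RefSeq's annotation of Sscrofa11.1 places the genes of these symbols on chromosome 3 from 11214194 to 11245891 (ELN), chromosome 9 from 4800683 to 4801941 (HBB), chromosome 10 from 21482984 to 21601627 (PTPRC) and chromosome 9 from 45619730 to 45633972 (CD3E). No library of either group crossed over for any of the 5 genes. HBB was counted in all 9 microbrush libraries. Per 1000000 counts without TMM scaling, the median level of MYH11 was 20700 on the brush, 8.92 in blood, 152 on the bare wire (n = 4) and 27100 in aorta (n = 4). On the same scale the medians for HBB were 591, 37800, 6220 and 18.1 in the same order. Those of ELN were 2170, 0.188, 441 and 1110, those of PTPRC 278, 2780, 444 and 53, and those of CD3E 45.3, 162, 36.3 and 16. The aorta libraries all came from pig 237053, which gave no brush, wire or blood library, so tissue and animal cannot be told apart in the aorta levels. Brush and wire were not tested against each other here.

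**Figure D1:**
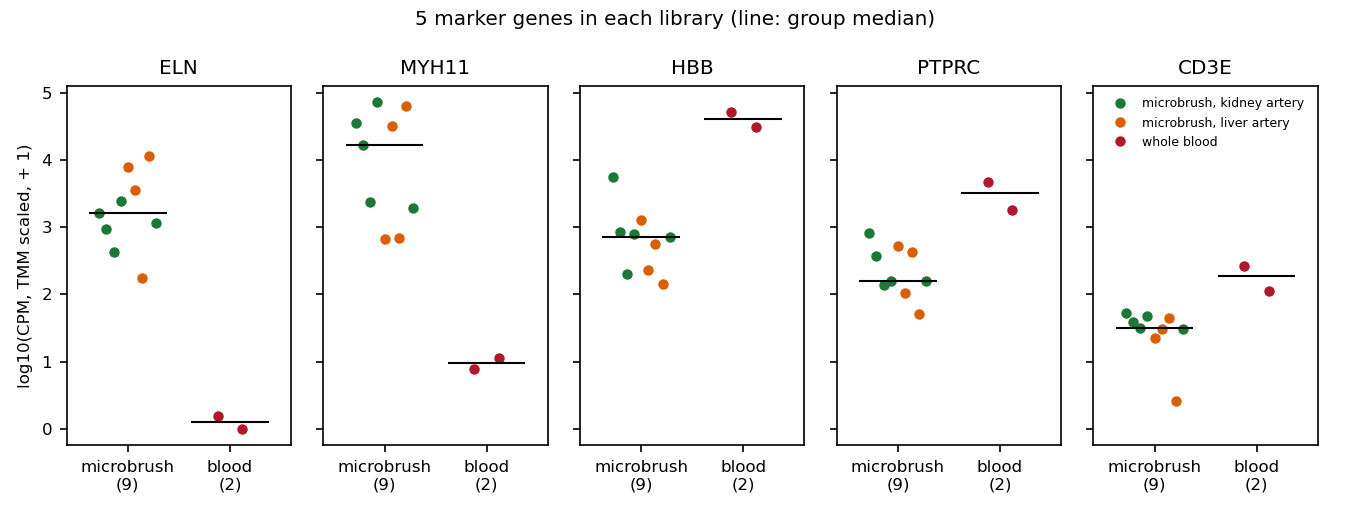
Level of 5 marker genes in each of the 9 microbrush and 2 blood libraries, as log10 of CPM after TMM scaling plus 1. Points are libraries, coloured by artery, and lines are group medians. ELN and MYH11 lie higher in all 9 microbrush libraries than in both blood libraries, and HBB, PTPRC and CD3E lie lower.

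Across all 18041 genes tested, edgeR's quasi-likelihood test with Benjamini-Hochberg adjustment called 0 genes higher on the brush (0%) and 0 lower (0%) at an adjusted p under 0.05. The smallest adjusted p was 0.0517, and at an unadjusted p under 0.05 there were 564 genes higher and 1196 lower. No gene passed this test, and the lists below are described by their values and by how many members did not overlap between the groups. All 9 microbrush libraries lay above both blood libraries for 428 genes (2.37% of those tested) and below both for 1035 genes (5.74%). The split depends on the scaling. Under RLE scaling 731 genes (4.05%) lay above and 660 (3.66%) below, and the median log2 fold change of all genes moved from -0.02 to 0.42. A change is best read against that shift. Leaving out microbrush 6 gave 792 genes above, leaving out microbrush 7 gave 611 below, and leaving out blood 3 gave 769 above and 4029 below. Limma voom with quality weights called 149 genes higher (0.826%) and 851 lower (4.72%), and DESeq2 called 601 higher (4.83%) and 171 lower (1.37%) of the 12444 genes to which it gave an adjusted p. DESeq2 and voom thus differ in which direction holds more calls. The shares of all genes given here are the background for the counts of list members below. Counts summed per pig, with the pig as a block pairing blood and brush, gave 556 genes higher and 317 lower of 17908 tested. Each pig enters that fit with a single summed brush library and its blood library, so its error estimate rests on very few values. Microbrush 6 and 9 held the most counts in the sum of pig 243K.

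Genes of the contractile apparatus of smooth muscle, the cells of the arterial media, had some of the clearest differences from blood. The fold change was positive for 22 of the 22 members tested, and its median was 4.73 on the log2 scale (4.97 under RLE scaling), where the median of all genes was -0.02. All 9 microbrush libraries lay above both blood libraries for 11 of the 22 members. Limma voom called 9 of the 22 higher and DESeq2 21. ACTA2, smooth muscle actin, ranged on the brush from 84.3 CPM in microbrush 8 to 11490 CPM in microbrush 9, with a median of 2118, against 9.63 and 34.5 CPM in blood. TAGLN, the actin-binding protein transgelin, ranged from 81.0 to 5038 CPM, with a median of 930.5, against 18.98 and 6.27 CPM. CNN1, the contractile regulator calponin, ranged from 9.83 to 2942 CPM, with a median of 365.8, against 0.55 and 2.65 CPM. SMTN, smoothelin of contractile smooth muscle, ranged from 55.4 to 2082 CPM, with a median of 829.5, against 8.53 and 1.45 CPM. By edgeR the log2 fold change was 11.53 for MYH11 (SE 3.25, adjusted p = 0.278) and 7.21 for SMTN (SE 1.99, adjusted p = 0.266). The list took between 0.764% of the counts in microbrush 10 and 12.8% in microbrush 5, with a median of 3.98%, against 0.103% and 0.109% in blood. Microbrush 5, 9, 7, 2 and 1 had the highest shares and microbrush 6, 3, 8 and 10 the lowest.

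Collagen genes separated the groups in every member measured. All 12 had positive fold changes with a median of 6.82 (7.04 under RLE scaling), all 12 had the 9 microbrush libraries above both blood libraries, and limma voom and DESeq2 each called all 12 higher. COL1A1, a chain of fibrillar type I collagen, ranged from 164 CPM in microbrush 8 to 25600 CPM in microbrush 9, with a median of 1925, against 5.78 and 10.6 CPM in blood. COL1A2, its partner chain, ranged from 32.1 to 9434 CPM against 1.93 and 4.10 CPM. COL3A1, the fibrillar collagen of distensible tissue, ranged from 107.1 to 27040 CPM, with a median of 4130, against 2.75 and 6.997 CPM. COL6A1, of the beaded filament collagen type VI, ranged from 15.5 to 1772 CPM against 2.75 and 4.83 CPM. Microbrush 9 held the highest and microbrush 8 the lowest level of each of these 4 genes. COL5A1, which regulates fibril diameter, had 2 counts in the 2 blood libraries together and a brush mean 4270 times higher (exact Poisson 95% interval of the blood counts 1180 to 35200). The transmembrane collagen COL13A1, named for its small p and not on the list, had 2 counts in blood as well and a brush mean 1840 times higher (interval 510 to 15200).

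Elastic fibre genes lay above blood in the same direction. All 17 members had positive fold changes, with a median of 3.51 (3.79 under RLE scaling), and 10 had no overlap with blood. FBN1, the fibrillin scaffold on which elastin is laid down, ranged from 19.7 CPM in microbrush 8 to 1346 CPM in microbrush 9, with a median of 254.8, against 6.60 and 5.79 CPM. LTBP4, which binds latent TGF-beta and helps elastin assembly, ranged from 28.98 to 959.5 CPM against 2.75 and 4.83 CPM. MFAP4, a microfibril protein of elastic tissue, ranged from 15.01 to 608.9 CPM against 1.38 and 3.38 CPM. After TMM scaling microbrush 6 did not follow its MYH11 level here. It had the lowest MYH11 level of the 9 libraries, yet with 7765 CPM the second highest ELN level. Its LTBP4 level of 909.9 CPM was also the second highest. Both ranks depend on its TMM factor of 0.37. Without the factors ELN and LTBP4 would be higher in microbrush 7 than in microbrush 6. MYH11 did not stand for the whole smooth muscle list. The list share of microbrush 6 (1.52%) lay above those of microbrush 3, 8 and 10 (1.01%, 0.837% and 0.764%). The summed elastic fibre counts were 0.372 of the summed smooth muscle counts in microbrush 6 and 0.472 in microbrush 10, with 0.0479 to 0.197 in the other microbrush libraries and 0.107 and 0.227 in blood.

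Basement membrane genes, the layer on which endothelium and smooth muscle sit, were positive in 9 of 9 members with a median of 4.94 (5.18 under RLE scaling), and 7 did not overlap with blood. HSPG2, which encodes perlecan, ranged from 78.7 CPM in microbrush 8 to 5198 CPM in microbrush 9, with a median of 1735, against 2.75 and 7.72 CPM. LAMA5 and LAMA4, the laminin alpha chains of the vascular basement membrane, ranged from 25.4 to 1373 CPM and from 3.62 to 342.5 CPM. Blood levels were 3.03 and 3.62 CPM for LAMA5 and 0.83 and 0.24 CPM for LAMA4. LAMB2, the laminin beta 2 chain, ranged from 29.5 to 1604 CPM against 8.53 and 7.48 CPM. By edgeR the log2 fold change was 8.75 for HSPG2 (SE 2.34, adjusted p = 0.248) and 7.54 for LAMA5 (SE 1.96, adjusted p = 0.237).

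Matricellular proteins and proteoglycans, which bind the fibres and the cells between them, were positive in 16 of 18 members with a median of 3.48 (3.73 under RLE scaling), and 8 did not overlap. MGP, the matrix Gla protein that restrains calcification of arteries, ranged from 46.0 to 2148 CPM, with a median of 656.7, against 7.43 and 8.45 CPM. SPARC, a collagen-binding glycoprotein, ranged from 38.8 to 3686 CPM against 4.13 and 9.17 CPM, and AEBP1 ranged from 47.6 to 2274 CPM against 4.68 and 9.17 CPM. CCN2, the connective tissue growth factor, ranged from 45.0 to 914.2 CPM against 6.88 and 13.0 CPM. The small proteoglycans overlapped with blood. BGN, biglycan, was above blood in 8 of 9 libraries, with 10.9 CPM in microbrush 8 against 13.0 CPM in blood 3. DCN, decorin of fibroblasts, ranged from 0.53 CPM in microbrush 6 to 89.3 CPM in microbrush 9, with a median of 11.06, against 0.83 and 1.21 CPM.

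Genes of mural cells, the pericytes and smooth muscle around small vessels, were positive in 9 of 9 members with a median of 3.66 (3.87 under RLE scaling). PDGFRB, the receptor that recruits mural cells, ranged from 9.83 to 360.2 CPM against 6.05 and 5.07 CPM, and CSPG4, the NG2 proteoglycan, ranged from 22.2 to 973.2 CPM against 9.35 and 21.96 CPM. These were the 2 members without overlap. NOTCH3, the Notch receptor of arterial smooth muscle, ranged from 39.6 to 1406 CPM against 24.2 and 55.5 CPM, and RGS5, a G protein regulator, from 3.45 CPM in microbrush 6 to 1738 CPM in microbrush 5 against 6.88 and 24.1 CPM. Adventitial fibroblast genes did not separate the groups. Their 7 measured members had a median of 0.28 (0.74 under RLE scaling), 0 had no overlap in either direction, and 0 passed the test at an unadjusted p under 0.05. PI16, an adventitial fibroblast marker, ranged from 0 to 100.1 CPM on the brush, with a median of 13.4, against 3.03 and 3.14 CPM.

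**Figure D2:**
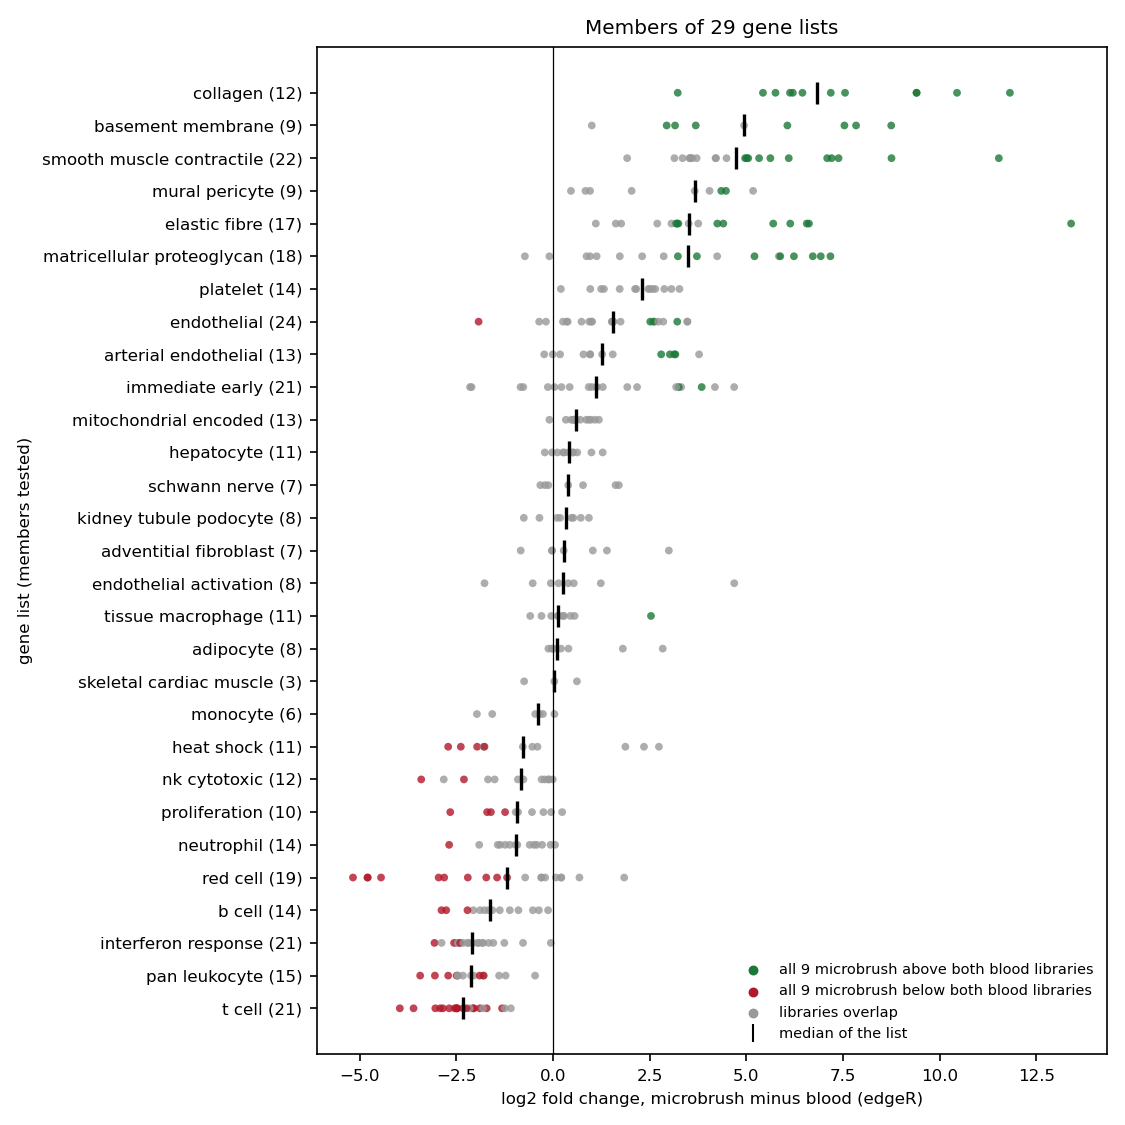
Log2 fold change of microbrush minus blood (edgeR) for each tested member of 29 gene lists, ordered by list median. Points are genes, coloured by whether all 9 microbrush libraries lie above both blood libraries, below both, or overlap with them, and bars are list medians. Collagen, with a median of 6.82, is highest, and the T cell list, with a median of -2.33, is lowest.

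Genes of endothelial cells, the target of the device, had a lower median fold change against blood than the muscle and matrix lists. Of 24 tested members 21 had positive fold changes, with a median of 1.54 (1.92 under RLE scaling). In all 9 microbrush libraries 4 lay above both blood libraries, and 1 lay below. Of all genes tested 2.37% lay above and 5.74% below, so 1 member below is near the share of all genes. PTPRB, the endothelial phosphatase VE-PTP, ranged from 24.6 to 444.2 CPM, with a median of 45.0, against 14.03 and 16.2 CPM. CLEC14A, an endothelial lectin, ranged from 13.1 to 230.9 CPM, with a median of 27.8, against 3.85 and 8.20 CPM. ESAM, a junctional adhesion molecule also found on platelets, ranged from 12.9 to 64.03 CPM, with a median of 32.5, against 3.30 and 7.96 CPM, and TEK, the angiopoietin receptor, ranged from 13.2 to 120.6 CPM against 10.2 and 12.8 CPM. By edgeR ESAM had a log2 fold change of 2.62 (SE 0.75, adjusted p = 0.278). CDH5, the cadherin that defines endothelial junctions, overlapped with blood. It was 6.05 and 18.3 CPM in blood and ran from 11.4 to 34.5 CPM in 8 microbrush libraries, with 189.4 CPM in microbrush 6. PECAM1, shared by endothelium, platelets and white cells, was 112.8 and 65.4 CPM in blood and ran from 52.7 to 1276 CPM on the brush, with a median of 82.2. S1PR1, a sphingosine phosphate receptor of endothelium that lymphocytes express too, was the member below blood, at 202.8 CPM in blood 1 and 16.9 to 98.7 CPM in the microbrush libraries, with blood 3 also above every microbrush library. It had a log2 fold change of -1.93 (SE 0.56, adjusted p = 0.282). The list took 0.053% to 0.197% of counts on the brush and 0.0432% and 0.0741% in blood, and 6 of 9 brush libraries lay above both.

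After TMM scaling, microbrush 6 held the highest level of PECAM1, CDH5, PTPRB, CLEC14A, TEK and ESAM. It also held the highest levels of the platelet genes described below, and it had counts for 12653 genes, the fewest of the 9, with a TMM factor of 0.37, the lowest. A low factor raises the CPM of a library, and without the factors ESAM would not be highest in microbrush 6. By share of counts, which uses no factor, the endothelial list was highest in microbrush 6 (0.197%). The low factor raises its other endothelial CPM levels too. Without the factors PECAM1, CDH5, PTPRB and CLEC14A would still be highest in microbrush 6, by smaller margins. Whether its platelet RNA and few genes contribute to these levels was not tested. Without microbrush 6 the median of the endothelial list was 1.11, against 1.54 with it. The summed endothelial counts were between 0.00444 and 0.173 of the summed smooth muscle counts on the brush, against 0.418 and 0.678 in blood, where both sums are low.

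Arterial endothelial genes had 11 of 13 positive fold changes and a median of 1.27 (1.69 under RLE scaling), with 4 members above blood in all 9 libraries. These were EFNB2, the arterial ephrin ligand, at 22.8 to 224 CPM against 7.98 and 19.1 CPM in blood, and HEY2, a Notch target gene, at 17.6 to 242.7 CPM against 5.78 and 13.99 CPM. The others were JAG1, a Notch ligand, at 47.1 to 638.3 CPM against 21.5 and 37.4 CPM, and SEMA3G, an arterial semaphorin, at 17.4 to 547 CPM against 10.5 and 16.9 CPM. GJA5, connexin 40 of arterial endothelium, overlapped by 1 library, at 20.2 to 636.4 CPM against 6.88 and 20.5 CPM. JAG1, HEY2 and GJA5 were highest in microbrush 5 and 9, the libraries with the highest smooth muscle shares. After TMM scaling EFNB2 and SEMA3G were highest in microbrush 6, which had the highest CDH5. For EFNB2 this depends on the TMM factor of 0.37 in microbrush 6, and without the factors EFNB2 would not be highest there. Smooth muscle also expresses JAG1 and HEY2, and the part of either cell type in these levels was not tested. Genes of endothelial activation had a median of 0.27 (0.66 under RLE scaling) over 8 members, and 0 did not overlap. VCAM1, an adhesion molecule of activated endothelium, was 748.1 CPM in microbrush 6, 103.9 CPM in microbrush 9 and at most 22.9 CPM in the other microbrush libraries, against 3.58 and 4.34 CPM in blood.

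Platelet genes were positive in 14 of 14 members with a median of 2.31 (2.79 under RLE scaling), but the libraries differed so much that 0 members separated the groups and 0 passed at an unadjusted p under 0.05. The median was 1.22 without microbrush 6, 0.77 by limma voom, 0.76 in the kidney libraries alone and 3.86 in the liver libraries alone. PPBP, a chemokine stored in platelet granules, ran from 3.78 CPM in microbrush 9 to 3138 CPM in microbrush 6, with a median of 72.6, against 94.6 and 24.9 CPM in blood. TUBB1, the tubulin of the platelet ring, ran from 5.83 to 7513 CPM, with a median of 198.5, against 270.5 and 91.2 CPM. ITGB3, the beta chain of the fibrinogen receptor, ran from 19.4 to 2268 CPM, with a median of 100.7, against 103.7 and 31.6 CPM. SELP, P-selectin, ran from 3.15 to 340.1 CPM against 22.3 and 7.24 CPM. For each of these 4 genes microbrush 6 was highest and microbrush 9 lowest, and microbrush 1, 7 and 8 also lay above both blood libraries. The summed platelet counts stood at 50.3% to 1150% of their mean share in blood, with a median of 188%.

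Red cell genes lay below blood in summed share, a sum carried mostly by HBB. The list took 3.96% and 4.30% of counts in blood and 0.0185% to 0.358% on the brush, which is 0.448% to 8.66% of the mean blood share, with a median of 2.69%. Without HBB it took 0.369% and 0.333% in blood and 0.00641% to 0.0793% on the brush, a median of 11.4% of the mean blood share. This exclusion was chosen after seeing the data. Over 19 members the median log2 fold change was -1.19 (-0.70 under RLE scaling, and -0.72 with the haemoglobin genes left out), 5 members were positive, and 10 lay below both blood libraries in all 9 microbrush libraries. ALAS2, which starts haem synthesis in developing red cells, was 2783 and 1099 CPM in blood and 7.72 to 218 CPM on the brush, with a median of 42.8. HBM, a minor alpha-like globin, was 1476 and 777.9 CPM against 8.98 to 139.8 CPM. DMTN, dematin of the red cell membrane skeleton, was 309.5 and 177.3 CPM against 4.21 to 43.8 CPM, and FECH, which inserts iron into haem, was 274.3 and 120.2 CPM against 14.8 to 57.3 CPM. By edgeR DMTN had a log2 fold change of -4.45 (SE 0.68, adjusted p = 0.0517), HBM -4.80 (SE 0.82, adjusted p = 0.0675) and HBB -5.17 (SE 1.15, adjusted p = 0.159). Limma voom called 6 members lower and DESeq2 5. In contrast GATA1, a transcription factor of red cell precursors and megakaryocytes, had a log2 fold change of 1.84 (SE 1.97, adjusted p = 1), with 71.5 CPM in microbrush 6, the library with the most platelet RNA, and 4.13 and 2.41 CPM in blood. Without microbrush 1, which held the most HBB, DMTN and ALAS2 on the brush, edgeR called 11 of 17815 genes lower and 0 higher. Without microbrush 6 it called 3 lower. Whether the genes called are red cell genes is not given here.

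Genes shared by all white cell types had lower fitted levels on the brush than in blood. The 15 pan-leukocyte members all had negative fold changes, with a median of -2.12 (-1.73 under RLE scaling), and 6 did not overlap. LCP1, the actin bundler L-plastin of white cells, was 1173 and 477 CPM in blood and 32.0 to 296.6 CPM on the brush, with a median of 57.4. CD53, a tetraspanin of white cells, was 243.2 and 99.7 CPM against 4.41 to 62.8 CPM, and CD48, an adhesion ligand, was 168.9 and 76.5 CPM against 1.26 to 47.1 CPM. The list stood at 3.60% to 33.2% of its mean share in blood, with a median of 18.4%. DESeq2 and limma voom each called 2 members lower.

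T cell genes were the list with the most members below blood. All 21 had negative fold changes, with a median of -2.33 (-1.87 under RLE scaling), 17 lay below both blood libraries in all 9 microbrush libraries, and limma voom called 9 lower, where DESeq2 called 3. CD2, an adhesion receptor of T and NK cells, was 595.9 and 221.5 CPM in blood and 6.61 to 88.1 CPM on the brush, with a median of 25.7. TRAT1, an adaptor of the T cell receptor, was 258.1 and 95.1 CPM against 1.06 to 27.3 CPM, CD3D was 203 and 86.9 CPM against 1.73 to 44.6 CPM, and CD247, the zeta chain, was 351.1 and 195.7 CPM against 9.45 to 135.1 CPM. CD2 had a log2 fold change of -3.61 (SE 0.66, adjusted p = 0.0791) and TRAT1 -3.96 (SE 0.74, adjusted p = 0.0791) by edgeR. Genes of NK and cytotoxic cells were negative in 12 of 12 members with a median of -0.84 (-0.31 under RLE scaling). The 2 without overlap were NKG7, a granule protein, at 37.97 and 16.2 CPM in blood and 0 to 5.15 CPM on the brush, and CTSW, cathepsin W, at 223.4 and 89.5 CPM against 3.31 to 84.1 CPM.

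B cell genes were negative in 14 of 14 members with a median of -1.62 (-1.23 under RLE scaling), and 3 did not overlap. MS4A1, the CD20 antigen, was 224.5 and 82.5 CPM in blood and 1.10 to 61.6 CPM on the brush, BANK1, a B cell adaptor, was 134.3 and 62.7 CPM against 1.69 to 42.5 CPM, and JCHAIN, the joining chain of secreted antibody, was 90.5 and 39.1 CPM against 0 to 27.4 CPM. CD79A, a chain of the B cell receptor complex, overlapped, with 196.9 CPM in microbrush 6 and 159.6 CPM in microbrush 1 against 249.8 and 131.7 CPM in blood. Neutrophil genes had a median of -0.95 (-0.48 under RLE scaling) over 14 members. CSF3R, the receptor for granulocyte colony-stimulating factor, was 319.1 and 145.5 CPM against 1.10 to 209.1 CPM and overlapped. The monocyte list of 6 members had a median of -0.40, which turned to 0.02 under RLE scaling, so no direction is given for it. LYZ, lysozyme of monocytes and granulocytes, was 95.7 and 22.9 CPM in blood and had a brush median of 4.63 CPM, and CD14, a monocyte receptor for bacterial lipid, had a log2 fold change of 0.04 (SE 0.85, adjusted p = 1). Genes of tissue macrophages had a median of 0.14 (0.59 under RLE scaling) over 11 members. FOLR2, a folate receptor of resident macrophages, was the only member above blood in all 9 libraries, where 2.37% of all genes were. It was low throughout, at 1.58 to 10.2 CPM against 0.55 and 0.97 CPM.

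**Figure D3:**
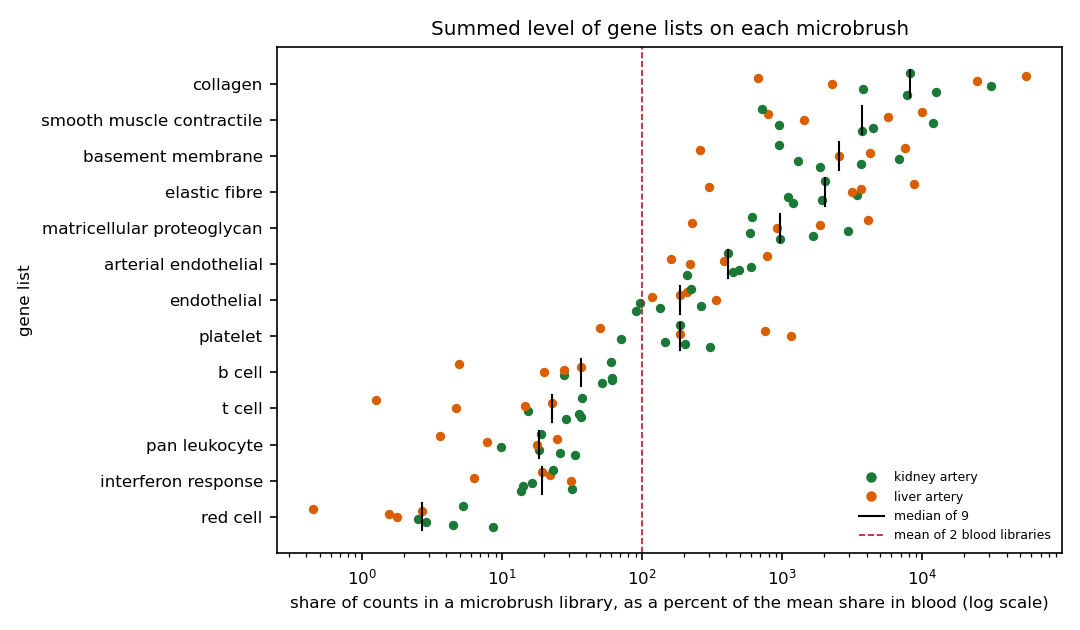
Summed counts of 13 gene lists as a share of each microbrush library, given as a percent of the mean share in blood on a log axis. Points are the 9 microbrush libraries, coloured by artery, black lines are their medians and the dashed line is the mean of the 2 blood libraries. Red cell genes have a median of 2.69% of blood, pan-leukocyte genes 18.4% and platelet genes 188%.

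Ratios between lists inside a library need no scaling between libraries, and they differed between the brush and blood. Summed red cell counts were 0.644 to 1.75 times the summed pan-leukocyte counts on the brush and 5.48 and 7.53 times in blood, lower in 9 of 9 microbrush libraries. That order rests on HBB. Without it the ratio was 0.177 to 0.797 on the brush and 0.511 and 0.583 in blood, with 6 libraries below both blood libraries and microbrush 3, 7 and 10 above. Summed platelet counts were 0.798 to 7.21 times the pan-leukocyte counts on the brush and 0.119 and 0.101 times in blood, higher in 9 of 9. In microbrush 5 and 9 the platelet share of counts itself (0.0512% and 0.0361%) lay below both blood libraries (0.0857% and 0.0579%). In microbrush 9 PPBP, TUBB1, ITGB3 and SELP, at 3.78, 5.83, 19.4 and 3.15 CPM, made up a small part of its platelet share. Apart from this, which members carry the platelet sum was not tested, as it was for HBB. Per red cell count the platelet ratio was 0.493 to 11.2 against 0.0216 and 0.0135, again higher in 9 of 9, and without HBB it was 1.36 to 30.9 against 0.232 and 0.174. B cell counts were 0.479 to 1.25 times the T cell counts on the brush and 0.290 and 0.304 times in blood. T cell counts per pan-leukocyte count showed no such order, with 0.143 to 1.03 on the brush and 0.498 and 0.579 in blood. Among the wall lists, collagen counts per smooth muscle count were 0.106 to 1.41 on the brush against 0.0649 and 0.178 in blood.

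**Figure D4:**
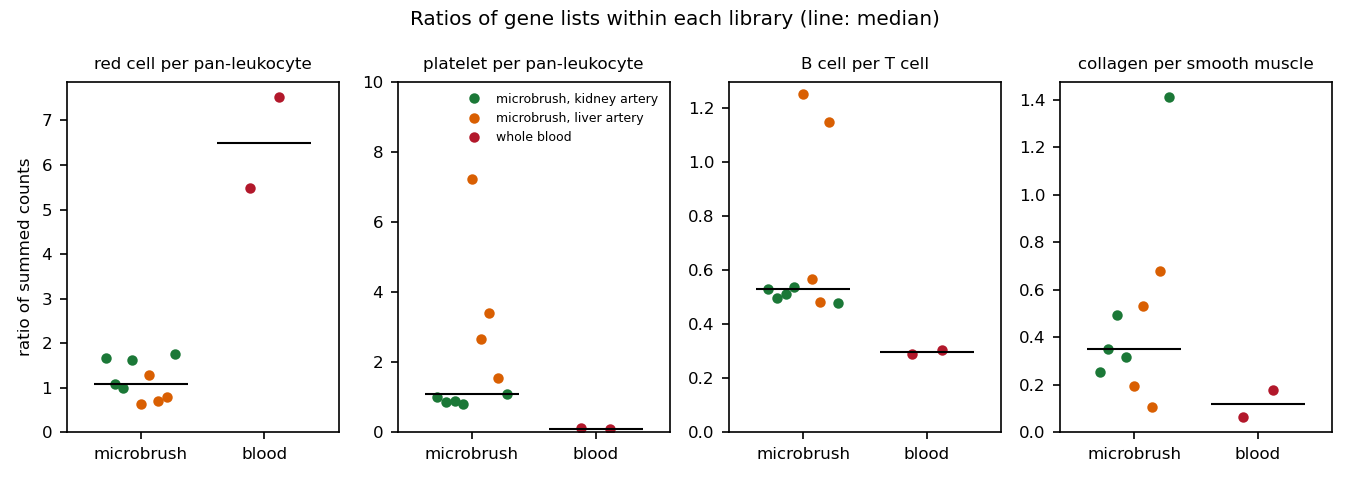
Ratios of the summed counts of 2 gene lists inside each library, for the 9 microbrush and 2 blood libraries, on linear axes from 0. Points are libraries, coloured by artery, and lines are medians. Red cell per pan-leukocyte counts are at most 1.75 on the brush and at least 5.48 in blood, and platelet per pan-leukocyte counts are at least 0.798 on the brush and at most 0.119 in blood.

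Genes of the interferon response, which white cells express strongly when stimulated, lay below blood as well. All 21 members had negative fold changes, with a median of -2.10 (-1.65 under RLE scaling), and 3 did not overlap. IFIT1, an antiviral RNA-binding protein, was 3246 and 1056 CPM in blood and 58.2 to 846.4 CPM on the brush, with a median of 131.5. IFI44 was 166.2 and 56.9 CPM against 10.95 to 35.6 CPM, and HERC5, the ligase that attaches ISG15, was 599.2 and 222.9 CPM against 25.5 to 180.9 CPM. CMPK2 overlapped by 1 library, ISG15 by 2 and MX1 by 1. The summed interferon counts were 0.620 to 8.03 times the pan-leukocyte counts on the brush and 1.59 and 1.39 times in blood, so the ratio lay on both sides of blood. IFI44 had a log2 fold change of -2.56 (SE 0.50, adjusted p = 0.0928) by edgeR.

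Among genes with a symbol and a mean of at least 10 CPM in blood, the 8 with the smallest p-values toward blood were DMTN and FECH, described above, and 6 more. KIF11, a motor of the mitotic spindle, was 219 and 75.0 CPM in blood and 10.3 to 22.8 CPM on the brush, with a log2 fold change of -3.13 (SE 0.44, adjusted p = 0.0517). SGO1, which protects chromatid cohesion, was 239.4 and 85.7 CPM against 1.06 to 16.6 CPM, and HMMR, a spindle-associated hyaluronan receptor, was 1248 and 412.8 CPM against 6.74 to 103.9 CPM. ATAD2, a chromatin ATPase, was 850.4 and 374.5 CPM against 29.9 to 108.2 CPM. The proliferation list had a median of -0.94 (-0.40 under RLE scaling) over 10 members and 4 below blood without overlap. These were TYMS, thymidylate synthase (0 to 13.1 CPM against 55.6 and 18.6 CPM), CENPF (25.2 to 79.7 against 230.6 and 132), TPX2 (2.39 to 34.2 against 102.6 and 54.5) and TOP2A (11.8 to 39.2 against 79.5 and 48.3). DTX3L, a ubiquitin ligase, and PRKACB, a catalytic subunit of protein kinase A, were the remaining genes named for a small p toward blood, with log2 fold changes of -3.15 (SE 0.49) and -2.65 (SE 0.43), each with an adjusted p of 0.0521. Toward the brush ALS2CL was named by the same rule, at 8.80 to 306.6 CPM against 1.10 and 1.21 CPM.

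Immediate early genes, which cells switch on within minutes of handling, flow or injury, were mixed. Of 21 members 16 had positive fold changes, with a median of 1.11 (1.51 under RLE scaling). JUN, at 50.2 to 499.6 CPM against 26.4 and 23.6 CPM, and CCN1, at 28.96 to 752.9 CPM against 7.98 and 21.2 CPM, lay above blood in all 9 libraries. EGR1 ran from 9.56 to 927 CPM against 14.6 and 18.8 CPM, and FOS from 3.94 to 451 CPM against 8.53 and 15.2 CPM. FOS and EGR1 were highest in microbrush 2, from the kidney of pig 243K, and JUN in microbrush 7, from the liver of pig 248K. Microbrush 9 held the lowest FOS level and microbrush 6 the lowest EGR1 level. MYC, at 143.9 and 69.5 CPM in blood and 5.98 to 83.3 CPM on the brush, and KLF2, a flow-responsive factor also high in resting lymphocytes, at a log2 fold change of -2.11 (SE 0.86, adjusted p = 0.41), pointed the other way.

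Heat shock genes had a median of -0.78 over 11 members, -0.33 under RLE scaling and 0.33 in the liver libraries alone. HSPH1 (181.9 and 89.3 CPM in blood, 10.1 to 36.1 CPM on the brush), HSPA8, HSPD1 and HSPE1 lay below both blood libraries in all 9 microbrush libraries. HSPH1 had a log2 fold change of -2.71 (SE 0.50, adjusted p = 0.0791), HSPA8 -1.96, HSPD1 -1.77 and HSPE1 -2.38. HSPB1, a small chaperone abundant in smooth muscle, overlapped with blood, at 21.6 to 708.9 CPM on the brush against 49.3 and 36.7 CPM (log2 fold change 2.74, SE 1.31, adjusted p = 0.534), and BAG3, a co-chaperone, had a log2 fold change of 1.87. Transcripts of the mitochondrial genome had a median of 0.60 (1.03 under RLE scaling) over 13 members and 0 without overlap. ND1 had a log2 fold change of 0.93 (SE 1.03, adjusted p = 1), and COX1 one of -0.09 (SE 0.96, adjusted p = 1), which is 0.35 under RLE scaling. The 2 most abundant identifiers without a symbol, ENSSSCG00000018063 and ENSSSCG00000018061, took 2.66% to 38.5% of counts on the brush and 6.37% and 4.33% in blood. Their share was 31.7% in microbrush 1, 38.5% in microbrush 6 and 33.2% in microbrush 8.

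Lists of tissues that were not the target of sampling gave medians near that of all genes. Hepatocyte genes had a median of 0.40, kidney tubule and podocyte genes 0.33, Schwann cell and nerve genes 0.39, adipocyte genes 0.11 and skeletal and cardiac muscle genes 0.03. Under RLE scaling these medians were 0.89, 0.77, 0.83, 0.60 and 0.49, where the median of all genes was 0.42. Of their members 0 separated the groups. ALB, albumin of hepatocytes, was 9.63 and 15.9 CPM in blood and 0.315 to 26.8 CPM on the brush. A gene of a tissue that was not sampled was therefore counted at low levels in both groups. Its range was wider on the brush, which had 9 libraries against 2 of blood, and more libraries tend to widen a range. Where these counts come from was not tested.

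At a fixed depth of 1000000 counts the microbrush libraries held 16728 ± 3045 genes (SD, n = 9) and the blood libraries 18150 (n = 2, 17464 and 18835). The difference was -1422 genes. It did not pass an exact permutation test over all 55 assignments of the libraries (two-sided, p = 0.6, smallest possible p 0.0182). Microbrush 6 and 9 had the fewest genes, 10748 and 13050, and microbrush 3 had the most, 19534. Across genes, the rank correlation between the 2 blood libraries was 0.879, and between pairs of microbrush libraries it ran from 0.373 to 0.92 with a median of 0.762. Genes are not independent replicates, and these correlations are a description. With the pig as an interaction term edgeR called 0 genes whose brush minus blood change differed between pigs 243K and 248K, 24 at an unadjusted p under 0.05, and a fit of this kind rests on 1 blood library per pig.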

How the data were processed

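Estimated counts per Ensembl gene were deposited by the authors for 21 pig libraries in 1 table, not scaled between samples. Per the labels, the RNAdvance Tissue kit yielded total RNA and SMARTer Pico the libraries, and per the submitters' processing notes Salmon, DESeq2 and the build Sscrofa11.1 were used, with versions not given in the sources used here. The table held 24358 genes, of which 14692 matched a symbol by identifier. Rounding to whole numbers changed 11.9% of the values and came before every test. If one read can be assigned to near-identical genes, Salmon shares it between them.

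The 9 microbrush and 2 blood libraries were fitted with edgeR 4.0.16 in R 4.3.3 (filterByExpr with a minimum count of 10, TMM, robust quasi-likelihood test, no covariate) and called at a Benjamini-Hochberg adjusted p under 0.05. Shares are summed counts of a list over all counts. Genes at fixed depth were the expected number after thinning to 1000000 counts (vegan 2.7.1). The members and the 29 gene lists, of which 388 of 440 entries were in the table, were chosen with earlier results of these data known. Genes were named by a rule: the 5 markers, the 8 smallest p-values per direction, and per list the 4 smallest p-values and the first 2 members. The 8 per direction were taken among genes with a symbol and a mean of at least 10 CPM in the higher group. TEK, SEMA3G, GATA1, HSPB1, BAG3 and KLF2 were chosen after their values were seen. On simulated data (16651 genes kept, 200 changed) edgeR called 5.97% of the 67 genes given a 4-fold change. It called 37.3% of the 67 given 16-fold and 63.6% of the 66 given 64-fold, and made 2 false calls. The simulated libraries shared 1 pooled profile and their genes 1 common dispersion, so these rates need not hold for the real libraries. The pig, named in the labels, pairs the blood and microbrush libraries. Across genes the pig difference in blood correlated with that on the brush (Pearson r 0.542), over 1 blood library per pig. Alternatives included RLE, TMMwsp and no scaling factor, other count filters, haemoglobin genes left out, DESeq2 1.42.0, limma 3.58.1 voom, pig as a block, summed per pig, single organs and pigs, left-out libraries put back, a common fit with wire and aorta, and each library left out. TMMwsp, no scaling factor, the red cell list without HBB and the run without microbrush 6 and 9 were chosen after seeing the data.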

Additional observations from a re-analysis of the deposited data

Results flagged for a closer look

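For 133 values, the named genes and 29 list shares, the 9 microbrush libraries were examined for a library whose gap to its nearest neighbour exceeded 0.493 of the whole range on a log scale, and 11 had one. Chance gives about 1 in 20 for values not picked beforehand. Some of these genes, TEK among them, were chosen by their values, so the tally is a description. After TMM scaling microbrush 6 stood above the others for the endothelial genes PTPRB (444.2 CPM, next 52.0), CDH5 (189.4 CPM, next 34.5) and TEK (120.6 CPM, next 33.1). These gaps depend on its TMM factor of 0.37. Without the factors those of PTPRB and CDH5 would be smaller and under the limit. Microbrush 6 stood below the others for TYMS, at 0 CPM with the next at 3.31, and for the adipocyte list, at 0.000471% of counts with the next at 0.006%. Microbrush 9 stood below the others for CD3E (1.58 CPM, next 21.3) and CTSW (3.31 CPM, next 18.8). It did so as well for the B cell list (0.00505% of counts, next 0.0203%), the neutrophil list (0.00146%, next 0.0156%) and the monocyte list (0.00285%, next 0.00862%). Microbrush 1 stood above the others for DMTN, at 43.8 CPM with the next at 11.5.

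The libraries left out of the comparison held some vessel wall lists above the highest blood library used. In microbrush 4 the smooth muscle list took 1.16% of counts (blood at most 0.109%), the elastic fibre list 0.0455% (0.0248%), the collagen list 0.0436% (0.0195%) and the matricellular list 0.14% (0.059%). Its platelet list took 0.774% against at most 0.0857% in blood. Its basement membrane list, at 0.0111%, lay below blood 3 at 0.0171%, and its mural list had 0%. In blood 2 the smooth muscle list took 0.302% of only 5634 counts, and the elastic fibre, collagen, matricellular, basement membrane and mural lists had 0%.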

How the results depend on the processing

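The named genes, all but 3, kept the direction of their fold change in every alternative that gave a value, and of 29 list medians 19 did. By edgeR 0 genes were higher and 0 lower in the main analysis and with the pig as a replicate block, which changed no call. Counts summed per pig with the pig as replicate block gave 556 higher and 317 lower, from a single summed brush library per pig. DESeq2 gave 601 and 171, and limma voom 149 and 851. The total count alone as scaling gave 2 and 49. Lower genes alone were called with no count filter (6), with the left-out libraries put back (2), in the common fit (7), without microbrush 6 and 9 (9) and with 1 library left out (0 to 11).

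The 428 genes above both blood libraries became 731 under RLE scaling, 714 under TMMwsp, 3249 summed per pig, 1284 in kidney, 1358 in liver, 1382 in pig 243K, 2023 in pig 248K, 123 with the left-out libraries put back and 933 without microbrush 6 and 9. The 1035 genes below became 660 under RLE, 574 under TMMwsp, 483 at a minimum count of 50, 3693 summed per pig, 3114 in pig 243K, 2386 in pig 248K, 0 with the left-out libraries put back, 609 in the common fit and 1717 by total counts alone. Leaving out 1 library gave 441 to 792 above and 611 to 4029 below. Fewer libraries make separation easier. Leaving out 1 blood library leaves 1, assumed to vary like the brush.

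CD14, ALB and COX1, near 0, turned sign, and the cause was not tested. CD14 became -0.05 with the pig as replicate block, -0.01 summed per pig, -0.06 in pig 243K and -0.08 to 0.28 with 1 library left out. ALB became -0.02 summed per pig and -0.20 to 0.51 with 1 left out. COX1 became 0.35 under RLE and DESeq2, 0.28 at a minimum count of 50, 0.07 summed per pig, 0.08 in kidney, 0.64 in liver, 1.11 in pig 248K, 0.62 with libraries put back, 0.21 in the common fit, 0.46 under TMMwsp, 0.24 without microbrush 6 and 9, 0.16 by total counts and -0.55 to 0.55 with 1 left out. The monocyte median became 0.02 under RLE and DESeq2, 0.05 in kidney, 0.08 with libraries put back and 0.07 under TMMwsp. The heat shock median became 0.33 in liver and 0.24 with libraries put back, and the endothelial activation median -0.29 by voom and -0.05 without microbrush 6 and 9. The skeletal and cardiac muscle median was -0.10 summed per pig. With 1 library left out, medians ran from -0.14 to 0.97 (adventitial), -0.18 to 0.85 (tissue macrophage), -0.12 to 1.21 (hepatocyte), -0.08 to 1.36 (kidney tubule), -0.08 to 1.06 (Schwann), -0.01 to 0.64 (adipocyte) and -0.26 to 0.39 (skeletal and cardiac muscle).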

Other observations

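Summed platelet counts per pan-leukocyte count were 0.798, 0.862, 0.882, 1.02 and 1.09 in the 5 kidney libraries and 1.55, 2.66, 3.4 and 7.21 in the 4 liver libraries, with no overlap between the arteries. Microbrush 9, with the ratio of 1.55, had the lowest PPBP, TUBB1, ITGB3 and SELP levels of the microbrush libraries. Its platelet share of counts (0.0361%) and its pan-leukocyte share (0.0233%) were the lowest as well. Its ratio therefore need not reflect more platelet RNA. The pattern was chosen after its values were seen, and the difference was not tested. Both pigs gave libraries to each artery.

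Microbrush 6 combined levels that lay apart in the other libraries. After TMM scaling it had the lowest MYH11 level (662.3 CPM) of the 9 microbrush libraries and the second highest ELN level (7765 CPM). That ELN rank depends on its TMM factor of 0.37, and without the factors ELN would be higher in microbrush 7. Microbrush 6 also had the highest CDH5, VCAM1 and PPBP levels (189.4, 748.1 and 3138 CPM) and the fewest genes with a count (12653). Microbrush 9 had the lowest HBB, PTPRC, CD3E and PPBP levels of the 9 (143.4, 50.5, 1.58 and 3.78 CPM) and the highest ELN and COL1A1 levels (11350 and 25600 CPM).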
